A study of Mus musculus with 6 samples.

Results

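The 10 genes described here encode transcription and chromatin factors of cardiac progenitors: Gata4, Gata5, Gata6, Tbx5, Tbx20, Nkx2-5, Isl1, Mef2c, Hand2 and Smarcd3. They were taken by gene symbol from a table of 24975 genes, and all 10 symbols occurred there once. Their transcripts were counted in mesoderm sorted from mouse embryos at E7.5, in 3 libraries that express Gli3R and 3 control libraries. Gli3R is the truncated form of Gli3, a transcription factor of the Hedgehog pathway, and represses Hedgehog target genes. The Gli3R embryos were Mesp1-Cre/+;R26-Gli3R-IRES-Venus/+, and the controls were Mesp1-Cre/+;R26-tdTomato/+. Both groups thus carry the Mesp1-Cre allele in the heterozygous state. Mesp1 is active in nascent mesoderm, so its Cre marks descendants of these cells, among them most of the heart. Per the file headers, Gli3R cells were sorted on Venus and control cells on tdTomato, so genotype and sorting reporter cannot be told apart. Each litter gave 1 library of each group, from pooled littermates, with 1000 cells per library.

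Heart muscle arises from mesoderm that leaves the primitive streak, moves to the front and side of the embryo and forms the cardiac crescent. GATA, T-box, homeobox, MEF2 and HAND factors bind together at cardiac enhancers and raise each other's transcription. Smarcd3 encodes BAF60c, a subunit of the BAF chromatin remodelling complex that helps GATA and T-box factors reach their targets. Hedgehog signalling is known to act on progenitors of the second heart field, which Isl1 marks.

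Library totals ran from 6592417 to 12635151 counts in Gli3R and from 5481190 to 10435790 in control. Levels are given as CPM, counts relative to library size after TMM scaling, which corrects for differences in library composition. A single read stood for 0.0777 to 0.154 CPM in Gli3R and for 0.0962 to 0.186 CPM in control. Gli3, part of which the transgene carries, averaged 44.5 ± 6.04 CPM in Gli3R and 29.9 ± 4.30 CPM in control libraries (SD, n = 3 each). The Hedgehog target gene Ptch1 had 21 reads in Gli3R and 72 in control libraries, and Gli1 had 12 and 44. In the edgeR test described below, neither Ptch1 nor Gli3 was called (adjusted p = 0.169 and 0.3125), and Gli1 was too sparse to be tested. The mesoderm genes Mesp1, Pdgfra and Kdr averaged 11.5, 56.7 and 35.2 CPM in Gli3R and 16.4, 61.1 and 26.0 CPM in control. Control replicate 1 stood apart from the other 5 libraries on the first principal component, at 39.8 against -19.2 to 2.25. In bulk RNA, fewer cells of a type and less RNA per cell cannot be told apart.

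Transcripts of all 10 factors were found in all 6 libraries, and their levels did not separate Gli3R from control. None of the 8 factors with enough reads to be tested was called in the two-sided quasi-likelihood test of edgeR, at a threshold of 0.05 on p-values adjusted over 11913 genes by Benjamini-Hochberg. Over all genes tested, 16 were called, or 0.134%, with 3 higher in Gli3R (0.0252%) and 13 lower (0.109%). With litter as a block, again 0 of the 8 were called, and 0.227% of all genes. Of the 8, 0 had an unadjusted p under 0.05, which 6.85% of all genes had. DESeq2 called 0 of 10, with 1 at an unadjusted p under 0.05 (Smarcd3). In the whole table of 24975 genes, DESeq2 called 87. The groups overlapped for all 8 factors, as they did for most tested genes, of which 12% did not overlap. Within litters, 3 of the 8 had the same direction in all 3 pairs, against 30.3% of all tested genes. In all, 3 log2 fold changes were above 0 and 5 below. Their median was -0.03, beside -0.01 for all tested genes, and the median size of the change was 0.24, beside 0.12.

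**Figure D1:**
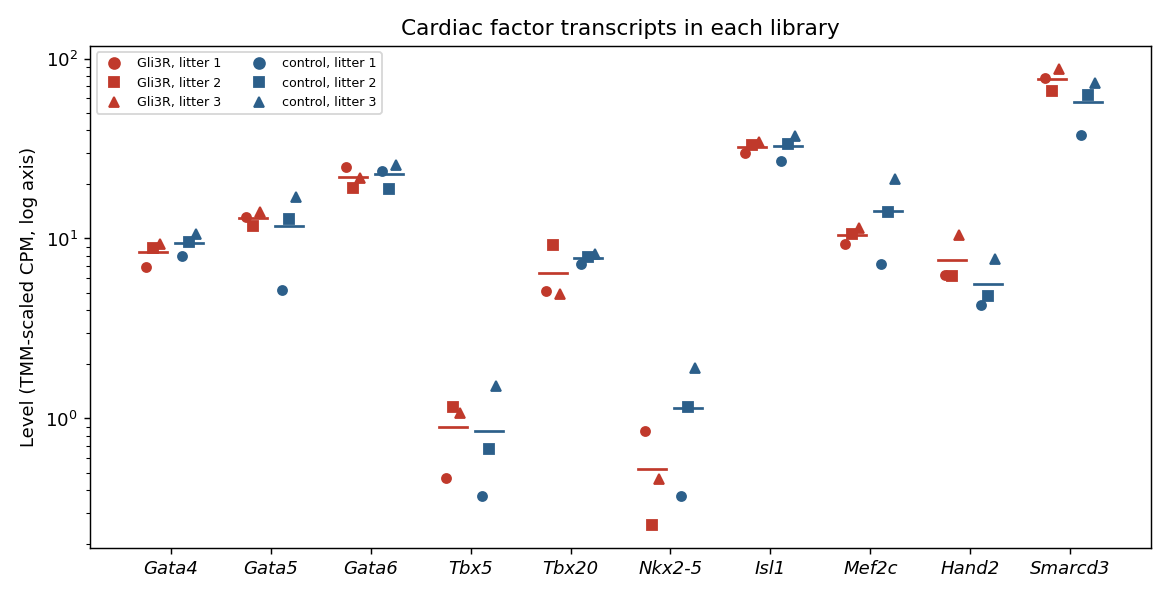
Level of each factor in each library (TMM-scaled CPM, log axis), with Gli3R in red and control in blue, a symbol for each litter and a line at each group mean (n = 3). The red and blue points overlap for every factor, and Nkx2-5 and Tbx5 lie at or below 1.90 CPM in all 6 libraries.

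Among the GATA factors, zinc finger proteins with early roles in heart and endoderm, Gata6 was the most abundant per length. Gata6 stood at 25.0, 19.0 and 21.8 CPM in Gli3R replicates 1, 2 and 3, against 23.75, 18.8 and 25.75 CPM in control replicates 1, 2 and 3. Its groups overlapped almost entirely, with a log2 fold change of -0.04 ± 0.16 (SE). The 95% interval of the Gli3R to control fold ran from 0.752 to 1.25. Gata4, which heart tube formation requires, had 6.91, 8.84 and 9.36 CPM in Gli3R, against 7.98, 9.62 and 10.7 CPM in control. Within each litter the Gli3R library was lower, by log2 ratios of -0.20, -0.12 and -0.18 in litters 1, 2 and 3. The log2 fold change of Gata4 was -0.19 ± 0.20, and the fold lay between 0.6385 and 1.20. The test did not pass (adjusted p = 0.983), and 15.3% of all tested genes were also lower in all 3 litters.

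Gata5, which acts with Gata4 and Gata6 in cardiac and endocardial cells, showed the widest control spread among the tested factors. It had 13.1, 11.8 and 13.96 CPM in Gli3R, against 5.195, 12.9 and 17.0 CPM in control. The Gli3R libraries were close together, and control replicate 1 lay below the other 5 libraries. Its log2 fold change was 0.12 ± 0.32, and -0.20 without control replicate 1 (95% interval -0.62 to 0.22). The log2 ratio was 1.30 in litter 1, against -0.13 and -0.28 in litters 2 and 3. Gata5 shares exon sequence with Gata5os on the other strand, which had 94 reads over the 6 libraries, and reads of the shared part cannot be assigned to either gene.

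Per length, the T-box genes were among the least abundant members. Tbx20, which acts in both heart fields and later in the chambers, had 5.13, 9.23 and 4.91 CPM in Gli3R, against 7.24, 7.89 and 8.24 CPM in control. Gli3R replicate 2 was the highest of the 6 libraries, and the other Gli3R libraries were the lowest. The log2 fold change was -0.29 ± 0.27 (adjusted p = 0.967), with a fold between 0.5395 and 1.24, and it was -0.63 without Gli3R replicate 2. Tbx5, a marker of the first heart field that later shapes atria and septum, had 6, 9 and 7 reads in Gli3R libraries, against 2, 7 and 12 in control. It was too sparse for the test. From the summed 22 and 21 reads, the Gli3R to control ratio was 0.912, and its 95% interval, for counting error alone, ran from 0.478 to 1.74. A difference smaller than this was not detectable at this depth.

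Of the homeobox genes, Isl1 was well measured and Nkx2-5 was near the detection limit. Isl1 had 30.1, 32.9 and 34.2 CPM in Gli3R, against 26.9, 33.3 and 37.2 CPM in control. The Gli3R range lay inside the control range. The log2 fold change was -0.01 ± 0.14, and the fold lay between 0.797 and 1.24, the narrowest interval of the 8 tested factors. Nkx2-5, an early marker of committed cardiac cells, had 11, 2 and 3 reads in Gli3R, against 2, 12 and 15 in control. Litter 1 thus ran against litters 2 and 3, with log2 ratios of 0.845, -1.50 and -1.62. The summed 16 against 29 reads gave a ratio of 0.480 (0.244 to 0.914, counting error only). When genes with low counts were kept, the log2 fold change of -1.06 ± 0.64 had an adjusted p of 0.899 over 18719 genes in the edgeR test. A count of 3 reads, the limit that a count of 0 allows, stood for 0.233 to 0.557 CPM, so both Nkx2-5 and Tbx5 were near that limit in several libraries.

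Mef2c, a MADS-box factor of the second heart field, had 9.32, 10.6 and 11.5 CPM in Gli3R, against 7.24, 14.05 and 21.4 CPM in control. The Gli3R values lay between those of control replicates 1 and 2. Its log2 fold change was -0.47 ± 0.32 (adjusted p = 0.926), with a fold between 0.441 and 1.18. Single control libraries moved this value widely: it was -0.76 without control replicate 1 (95% interval -1.24 to -0.28, adjusted p = 0.371) and -0.07 without control replicate 3. Hand2, a basic helix-loop-helix factor of the second heart field and right ventricle, had 6.29, 6.15 and 10.4 CPM in Gli3R, against 4.27, 4.81 and 7.74 CPM in control. Every litter had more in its Gli3R library, with log2 ratios of 0.535, 0.34 and 0.42 in litters 1, 2 and 3, as had 15% of all tested genes. The groups overlapped, since control replicate 3 exceeded Gli3R replicates 1 and 2. The log2 fold change was 0.41 ± 0.30 (adjusted p = 0.939), and 0.14 without Gli3R replicate 3 and 0.72 without control replicate 3. The antisense gene Hand2os1 shares exon sequence with Hand2 and was not analysed here.

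Smarcd3 had the smallest p of the 8 tested factors, 0.0747 before adjustment and 0.797 after it. It had 78.4, 66.1 and 87.8 CPM in Gli3R, against 37.7, 62.5 and 72.7 CPM in control. The groups overlapped, since control replicate 3 lay above Gli3R replicate 2. The log2 fold change was 0.41 ± 0.21, with a fold between 0.966 and 1.84. With litter as a block, the unadjusted p was 0.0328 and the adjusted p 0.502. Litter 1 had a log2 ratio of 1.05, against 0.08 and 0.27 in litters 2 and 3. Without control replicate 1 the log2 fold change was 0.20 (95% interval -0.10 to 0.50). Without control replicate 3 it was 0.61 (95% interval 0.14 to 1.08, edgeR adjusted p = 0.447). Chpf2, which overlaps an exon of Smarcd3 on the other strand, had 78 reads in all, against 2097 and 1426 reads of Smarcd3 in Gli3R and control.

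**Figure D2:**
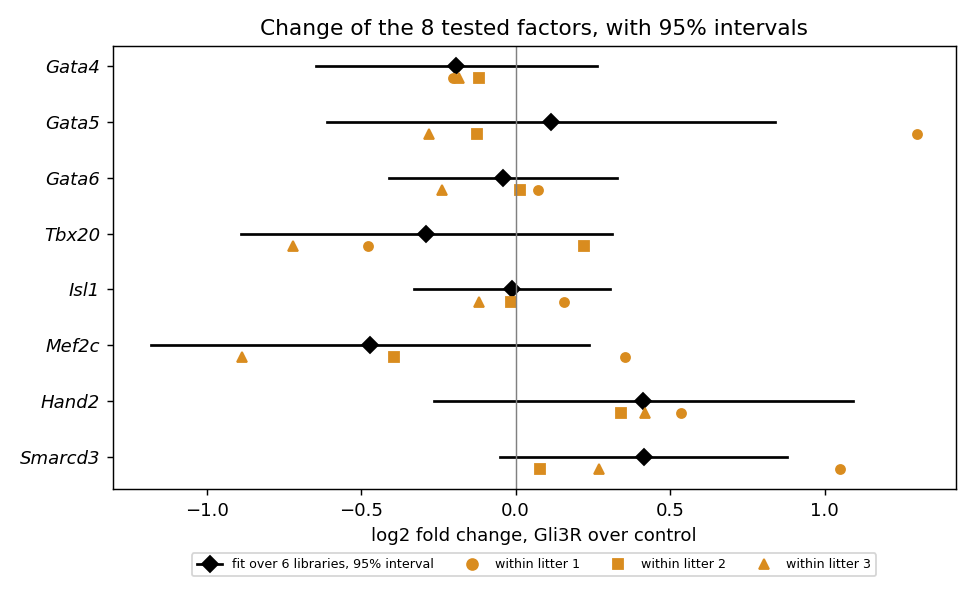
Log2 fold change of Gli3R over control for the 8 tested factors, from the edgeR fit over 6 libraries with its 95% interval (black), and the log2 ratio within each litter (orange). Every interval crosses 0, and litter 1 lies far to the right of the other litters for Gata5, Mef2c and Smarcd3.

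Control replicate 1 held less of most factors than the other controls. It was the lowest of the 3 control libraries for 7 of the 8 tested factors, against 38.6% of all tested genes, and the lowest of all 6 libraries for 5 of the 8, against 22.9%. Relative to the mean of control replicates 2 and 3, it had 0.348 times the Gata5 level, 0.408 times the Mef2c level, 0.557 times the Smarcd3 level and 0.680 times the Hand2 level. Isl1 (0.764), Gata4 (0.787) and Tbx20 (0.897) differed less, and Gata6 stood at 1.07 times. Nkx2-5 and Tbx5 had 2 reads each in control replicate 1, which was also the shallowest of the 6 libraries, with 5481190 counts. Summed over the 10 factors, it held 121 CPM, the lowest sum of the 6 libraries. The sums were 175.5, 166.1 and 195.5 CPM in Gli3R replicates 1, 2 and 3 and 165.7 and 204.1 CPM in control replicates 2 and 3.

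Genes of other cell states lay in both directions in the same library. Of 12 mesoderm genes, 3 were highest of the 6 libraries in control replicate 1 (Mesp1, T and Mixl1) and 3 lowest (Kdr, Hand1 and Mest), beside 24.6% and 22.9% of all tested genes. All 12 were tested, 8 had a log2 fold change below 0 (median -0.39) and 5 an unadjusted p under 0.05. By edgeR or DESeq2 0 were called, and 1 (T) fell with litter as a block. The smallest p belonged to Foxf1, at 11.3 ± 1.71 CPM in Gli3R and 17.0 ± 1.13 CPM in control (edgeR adjusted p = 0.3745). The summed mesoderm list was 1297 to 1719 CPM in Gli3R and 980 to 1607 CPM in control, lowest in control replicate 1. Most of this sum was Mest alone, at 999, 1383 and 1362 CPM in Gli3R and 650, 1005 and 1291 CPM in control. The sum therefore mainly follows Mest and does not measure the amount of mesoderm. T, the Brachyury gene of the primitive streak, had 8.08, 5.13 and 3.53 CPM in Gli3R, against 43.6, 16.4 and 7.99 CPM in control replicates 1, 2 and 3. Mesp1 had 9.01, 11.15 and 14.3 CPM in Gli3R, against 25.2, 16.0 and 8.12 CPM in control. The summed epiblast list held 149 to 162.5 CPM in Gli3R and 156 to 293.5 CPM in control, with its highest value in control replicate 1, where 9 of its 11 genes were highest of the 6 libraries. Of its 9 tested genes 8 had a log2 fold change below 0, 5 had an unadjusted p under 0.05, edgeR called 0 and DESeq2 called 4 (Pou5f1, Cdh1, Epcam and Hesx1). Cdh1, the E-cadherin gene, averaged 0.454 ± 0.129 CPM in Gli3R and 4.36 ± 2.57 CPM in control, and was called with litter as a block (edgeR adjusted p = 0.0327) and not without it (0.0869). The part of these differences in the levels of the cardiac factors was not tested. The coefficient of variation was 8.45% in Gli3R and 51.2% in control for Gata5, 10.5% and 49.9% for Mef2c, and 14.01% and 31.3% for Smarcd3. It was larger in control for 6 of the 8 tested factors, against 56.6% of all tested genes.

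Levels of different genes were compared per length, as CPM per kilobase of merged exons (RPKM). Smarcd3 averaged 39.8 RPKM in Gli3R and 29.6 RPKM in control, Isl1 12.9 and 12.9, and Gata6 6.78 and 7.04. These 3 kept this order in all 6 libraries, with ranges that did not overlap. Gata5 followed at 3.95 in Gli3R and 3.57 RPKM in control, Hand2 at 3.24 and 2.38, Gata4 at 2.30 and 2.59, and Mef2c at 1.44 and 1.95. The ranges of neighbours among these 4 overlapped, so their order is not settled. Tbx20 averaged 0.671 in Gli3R and 0.814 RPKM in control, below Mef2c in all 6 libraries. Nkx2-5 at 0.343 and 0.749 and Tbx5 at 0.228 and 0.217 RPKM came last, and neither stood clear of its neighbour.

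**Figure D3:**
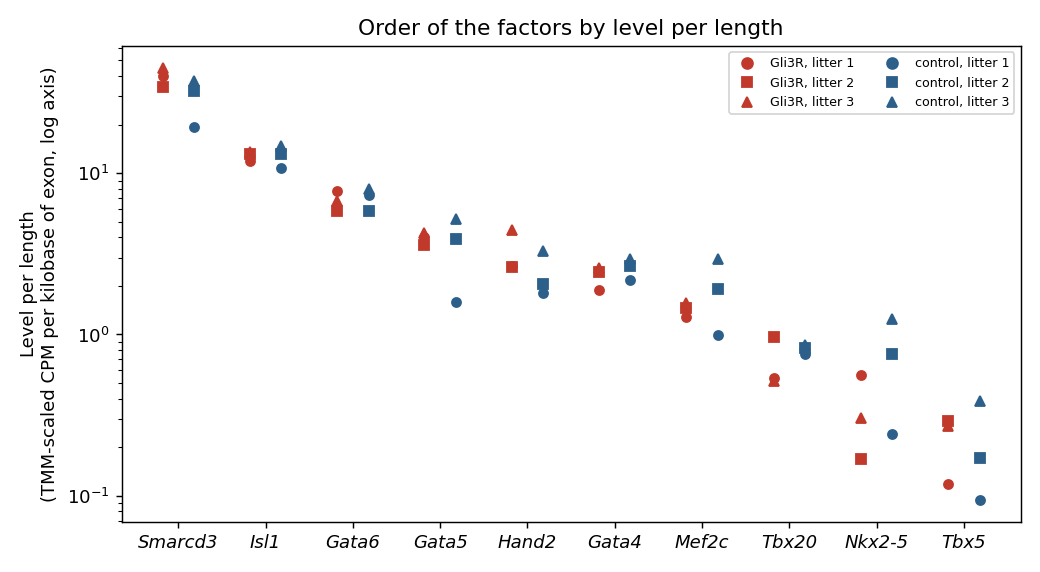
Level per length of each factor (TMM-scaled CPM per kilobase of merged exons, log axis) in each library, ordered by the mean over 6 libraries, with Gli3R in red left of control in blue. Smarcd3, Isl1 and Gata6 form separate steps, Gata5 to Mef2c overlap, and Nkx2-5 and Tbx5 are lowest.

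Several members belong to families whose relatives were measured in the same libraries, which allowed their share per length to be set out. These shares were chosen after the values were seen and are given with no test. Gata6 made up 51.9 ± 4.17% of the summed Gata4, Gata5 and Gata6 level in Gli3R and 54.15 ± 10.4% in control (SD, n = 3 each). Gata5 made up 29.4 to 31.4% in Gli3R, and 14.3, 31.8 and 32.3% in control replicates 1, 2 and 3. Smarcd3 made up 67.9, 68.5 and 73.7% of the SMARCD subunit level in Gli3R, against 48.95, 63.1 and 67.6% in control. The groups nearly met, at 67.9% in Gli3R replicate 1 and 67.6% in control replicate 3, and the Smarcd3 level itself overlapped between groups. Smarcd1 and Smarcd2, the alternative subunits, held the rest. Hand2 made up 3.46 ± 0.731% of the HAND level in Gli3R and 3.40 ± 0.668% in control, and Hand1, a factor of extraembryonic and lateral mesoderm, held the rest. Mef2c made up 44.5 to 52.8% of the Mef2a, Mef2c and Mef2d level in Gli3R and 42.8 to 68.8% in control.

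**Figure D4:**
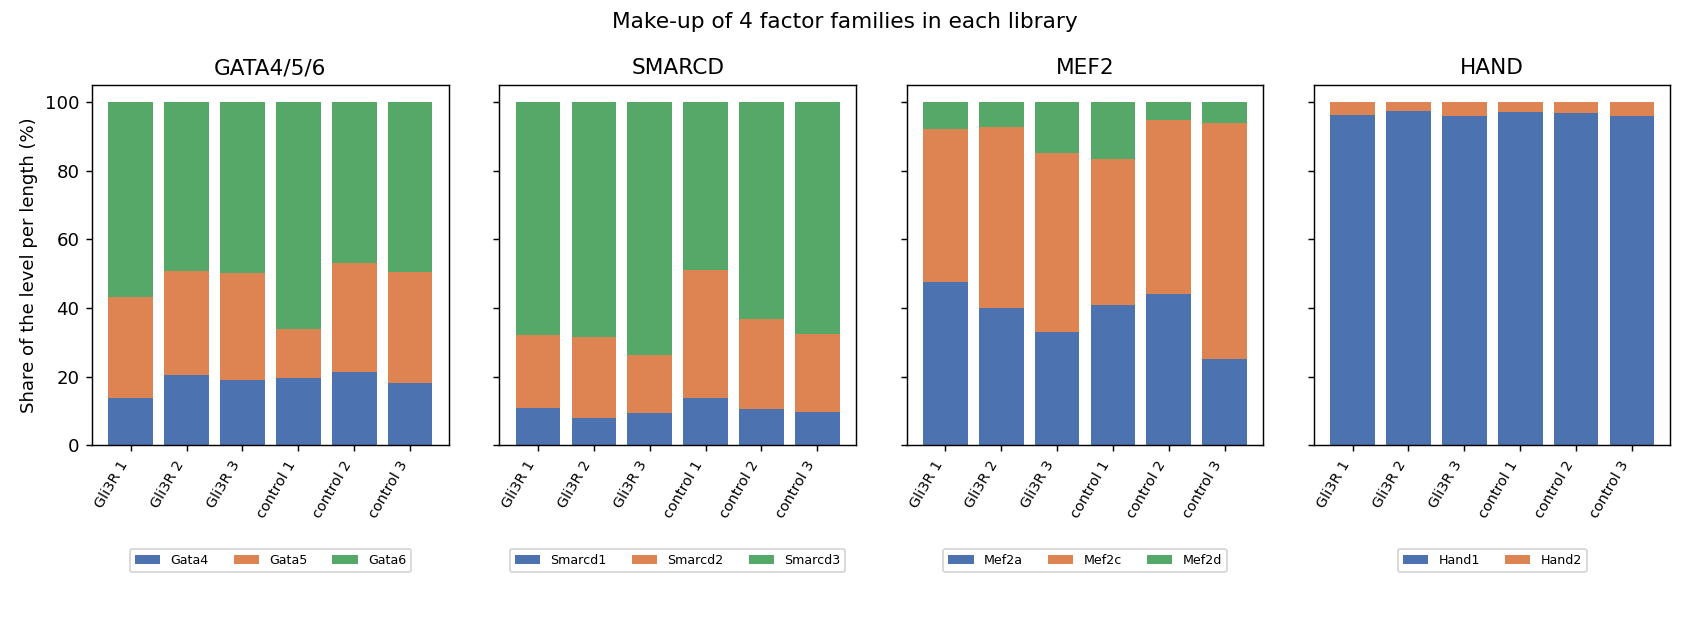
Share of each gene in the summed level per length of its family (percent, stacked bars) in each library, with Gli3R libraries left of control libraries. Gata6, Smarcd3 and Hand1 are the main members, and control replicate 1 has the smallest Gata5 and Smarcd3 shares.

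Other regulators of cardiac mesoderm did not pass either. Of 28 listed, 21 were tested, 0 rose and 0 fell over all genes tested, and their median log2 fold change was -0.02 (5 had an unadjusted p under 0.05, and DESeq2 called 0). The smallest p-values belonged to Meis1, a homeobox factor (33.4 ± 5.995 CPM in Gli3R and 22.3 ± 2.27 in control), Srf, a partner of myocardin (15.4 ± 0.536 and 10.4 ± 1.46), Hand1 (180 ± 33.7 and 133 ± 16.65) and the forkhead gene Foxc2 (6.87 ± 2.88 and 12.04 ± 2.04). Their adjusted p-values ran from 0.354 for Meis1 to 0.647 for Foxc2. Meis1 and Srf had groups that did not overlap, as 5.62% of all tested genes had with Gli3R above, and so had Foxc2, as 6.33% had with Gli3R below.

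Contractile genes, products of cardiac differentiation, were partly detected. Of 19 listed, 9 were tested, 0 rose and 0 fell. Of the 9, 4 had an unadjusted p under 0.05, against 6.85% of all tested genes. DESeq2 called 2, Actc1 and Tnnc1, against 87 of the 24975 genes in the table. Actc1, cardiac alpha-actin, averaged 59.6 ± 10.7 CPM in Gli3R and 36.4 ± 8.03 CPM in control (adjusted p = 0.291). Tnnc1, troponin C of slow and cardiac muscle, averaged 34.4 ± 7.10 and 17.3 ± 7.96 CPM (adjusted p = 0.4655). Tnni1 averaged 48.8 ± 4.305 and 39.6 ± 4.87 CPM, and Myl2, a ventricular myosin light chain gene, 1.10 ± 0.761 and 3.90 ± 1.76 CPM. The median log2 fold change of the 9 was 0.30. Their summed level with the 10 untested genes was 1134 to 1407 CPM in Gli3R and 802 to 1380 CPM in control, lowest in control replicate 1. Most of this sum was Tpm1 and Acta2, which averaged 756 and 269 CPM in Gli3R and 687 and 179 CPM in control. The sum therefore mainly follows Tpm1 and Acta2 and does not measure cardiac differentiation. Mature chamber genes such as Myh6 and Nppa were below the filter, at 0.249 and 0.120 CPM in Gli3R and 0.773 and 0.382 CPM in control.

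Like Smarcd3, the listed genes of BAF complexes were not called. Of 24 listed, 23 were tested, 0 rose and 0 fell, 2 had an unadjusted p under 0.05, DESeq2 called 0 and the median log2 fold change was 0.01. The smallest p-values belonged to Dpf3, a histone reader of heart and muscle BAF complexes (7.03 ± 2.84 CPM in Gli3R and 3.24 ± 1.72 CPM in control, adjusted p = 0.678), Smarcc2 (6.085 ± 0.939 and 4.25 ± 0.179), Smarcd2, which takes the place of Smarcd3 in other complexes (34.9 ± 3.58 and 40.9 ± 3.45) and Bcl7b (21.9 ± 1.33 and 18.7 ± 2.46). Among 21 relatives of the members, 16 were tested, 0 rose and 0 fell, 4 had an unadjusted p under 0.05 and DESeq2 called 0. The 4 were T, Hand1, Gata3 (3.09 ± 1.05 and 1.58 ± 0.289) and Tbx6 (2.57 ± 1.82 and 7.51 ± 5.83). T was called with litter as a block (edgeR quasi-likelihood test, adjusted p = 0.0373) and not without it (0.402).

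Gata4 and Gata6 are also endoderm genes, and other cell types could share a sort. Of 19 endoderm markers, 18 were in the table, 9 were tested and 0 were called by edgeR or DESeq2, with 1 at an unadjusted p under 0.05. That was the tight junction gene Cldn6, at 0.544, 2.05 and 0.153 CPM in Gli3R and 15.4, 11.3 and 0.634 CPM in control (adjusted p = 0.415, and 0.0502 with litter as a block, by edgeR). Afp, Ttr and Apoa1 averaged 1.13, 2.44 and 10.8 CPM in Gli3R and 0.679, 1.30 and 5.18 CPM in control. All 3 were highest in replicate 2 of each group. Apoa1 had 1.48, 23.1 and 7.98 CPM in Gli3R, against 1.48, 12.4 and 1.65 CPM in control. Foxa2 had 0 reads in Gli3R and 19 in control, and Hnf4a averaged 0.0427 and 0.0744 CPM. The summed endoderm list was 136 to 199 CPM in Gli3R and 120 to 188 CPM in control. Most of this sum was Cer1 and Dab2, which averaged 67.1 and 68.7 CPM in Gli3R and 62.5 and 57.5 CPM in control. The blood and endothelial list was 424 to 881 CPM in Gli3R and 356.5 to 621 CPM in control. The largest part of this sum was the globin gene Hbb-bh1, at 528.5, 150 and 138 CPM in Gli3R and 266, 341 and 146 CPM in control. Of the 14 tested genes in this list edgeR called 0, and 6 had an unadjusted p under 0.05. DESeq2 called 3, with Tal1 and Etv2 higher in Gli3R and Lmo2 lower. The extraembryonic list was 1194 to 1455 CPM in Gli3R and 867 to 1134 CPM in control, and it was lowest in control replicate 1. Of its 11 tested genes 1 rose, Ahnak, at 85.5 ± 7.77 CPM in Gli3R and 42.6 ± 4.83 CPM in control (edgeR adjusted p = 0.0172), and 0 fell. In this list 6 had an unadjusted p under 0.05, DESeq2 called 5 (Ahnak, Msx1, Bmp4, Tagln and Peg3), and 3 rose with litter as a block (Ahnak, Msx1 and Bmp4). The paraxial list was 164 to 243 CPM in Gli3R and 322 to 474 CPM in control, highest in control replicate 1. Of its 10 tested genes 2 fell, Fst, a secreted activin antagonist (15.4 ± 2.205 CPM in Gli3R and 49.4 ± 7.01 CPM in control), and Dll3, a Notch ligand (4.34 ± 0.277 CPM in Gli3R and 14.03 ± 2.71 CPM in control), and 0 rose. In this list 9 had an unadjusted p under 0.05, DESeq2 called 3 (Fst, Dll3 and Ripply2), and 2 fell with litter as a block. The stress list was 160 to 218 CPM in Gli3R and 149.5 to 214.5 CPM in control, with 0 of 10 called by either tool and 0 at an unadjusted p under 0.05. The part of these cell types in the levels of the cardiac factors was not tested.

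Start sites of the members were searched for binding motifs of Gli and of the GATA, NKX2, MEF2 and T-box families, which were chosen after the values were seen. No motif of HAND factors or of Isl1 was searched. RefSeq windows of 250 bases before and 50 bases after the start (GRCm38.p6) were at hand for 7 of the 10 genes, in 9 windows, 3 of them of Mef2c. Tbx5, Gata4 and Gata6 had no window, so the search does not cover them. On either strand, the Gli motif TGGGTGGTC occurred in 0 of the 9, and in 0 with 1 mismatch allowed, against 0.253% and 6.74% of 32851 windows of all genes. The GATA motif AGATAA occurred in 2 of 9, in Hand2 and Isl1, against 11.2% of all windows. The form TGATAA, which differs in its first base, was not counted, and both of these windows also hold it, unmarked. The NKX2 homeobox motif TTAAGTG, the MEF2 motif TAAAAATAG and the T-box motif AGGTGTGA occurred in 0 of 9, against 2.41%, 0.493% and 1.28%. A looser MEF2 pattern, tried before this one, had no match in the members' windows either. A missing match says only that these letters are not in these windows. Both windows with a GATA match are shown 5′ to 3′ on the gene's strand, with the match in capitals (in Hand2 on the opposite strand, 172 bases before the start). The Hand2 window is chr8:57320733-57321032 on the plus strand, with 50.3% G and C, and the Isl1 window is chr13:116309639-116309938 on the minus strand, with 69.0% G and C.
Hand2: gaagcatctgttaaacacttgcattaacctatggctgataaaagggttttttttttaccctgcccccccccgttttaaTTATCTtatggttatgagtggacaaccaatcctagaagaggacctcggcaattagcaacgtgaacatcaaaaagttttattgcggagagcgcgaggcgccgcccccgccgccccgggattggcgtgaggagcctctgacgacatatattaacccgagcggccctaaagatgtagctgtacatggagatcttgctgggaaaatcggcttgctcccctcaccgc
Isl1: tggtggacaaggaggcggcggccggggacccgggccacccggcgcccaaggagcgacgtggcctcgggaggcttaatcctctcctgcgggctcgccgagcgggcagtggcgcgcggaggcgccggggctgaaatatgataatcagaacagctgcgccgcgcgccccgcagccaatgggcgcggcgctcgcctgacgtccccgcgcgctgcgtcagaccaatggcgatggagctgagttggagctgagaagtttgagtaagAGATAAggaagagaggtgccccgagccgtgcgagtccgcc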

How the data were processed

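The authors deposited raw counts per Entrez gene for each of the 6 libraries, matched here by title. Per the submitters' processing notes, the build was mm9 and the tools included TopHat2 2.0.14, Subread 1.4.6 and featureCounts, in roles not stated. The annotation and the strand setting are unknown, so overlapping genes are uncertain.

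In edgeR 4.0.16 under R 4.3.3, filterByExpr at a minimum count of 10 kept 11913 genes with 99.8% of each library's counts. The quasi-likelihood test (TMM scaling) was fitted on the whole table and checked on simulated data. SEs and 95% intervals follow from its F statistic. Within-litter log2 ratios used a prior count of 2, and ratios of summed reads exact binomial intervals. Gene lengths and the overlaps of exons came from GENCODE vM21 (GRCm38), a different build from the mm9 of the counts. The positions printed here are those of the RefSeq windows. Alternatives were litter as a block, other scalings and filters, DESeq2 1.42.0 and left-out libraries or litters; length by longest transcript was added after the values were seen.

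Per the file headers, replicate numbers mark litters. Deviations from the mean of a group had correlations of 0.0755 to 0.187 within litters and -0.269 to 0.162 between them. Libraries differed by a chi-square per gene of 3.30 to 10.9, so none was a copy. Members, lists and tests were chosen with earlier results of these data known. Named genes were the members, Gli3, Gli1, Ptch1, the 4 with the smallest p in each of 4 lists, called list genes and leading cell type markers; others were chosen after their values were seen.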

Additional observations from a re-analysis of the deposited data

How the results depend on the processing

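The count of called cardiac factors was 0 under all 15 alternatives, and 0 to 2 had an unadjusted p under 0.05. Of 120 values of the 8 tested factors under these alternatives, 109 kept their sign and 11 did not. Isl1 stood at 0.0064 with the replicate block, and its log2 fold change ran from -0.12 to 0.10 when libraries or litters were left out. Gata6 ran from -0.17 to 0.07 and Gata5 from -0.21 to 0.46; Gata5 was below 0 only without control replicate 1 (-0.20) or without both libraries of litter 1 (-0.21). The other reversed values were 0.04, 0.01 and 0.10 for Isl1 without Gli3R replicate 1, control replicate 2 or control replicate 3, 0.01 and 0.06 without litter 2 or 3, and 0.05, 0.06 and 0.070 for Gata6 without Gli3R replicate 2, control replicate 3 or litter 3. The cause was not tested. The block changed no call of a cardiac factor.

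The count of all genes called, 16, became 27 with the replicate block, 108 with no filter, 87 with DESeq2, and 0 to 27 when a library or a litter was left out. It was 0 without Gli3R replicate 3 or litter 3. The count over all listed genes, 3, became 7 with the replicate block, 5 with library size alone, 22 with no filter and 17 with DESeq2, and 0 to 6 when a library or a litter was left out. Depth limits Nkx2-5 and Tbx5, which were not tested in the filtered fit. The order of levels per length was the same with the longest transcript as length.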
